A study of Mus musculus with 21 samples.

Results

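The 10 genes Gata6, Rarb, Timd4, Vsig4, Adgre1, Icam2, Cd5l, Fn1, Prg4 and Tgfb2 mark large peritoneal macrophages, the resident macrophages of the mouse peritoneal cavity. They were chosen by name, and they are 10 of the 23544 genes with a level above 0 in at least 1 library. Transcripts were measured in 21 libraries of CD11b+ cells of the peritoneal cavity of C57BL/6 mice. All 10 genes were found in the table, and 9 had a mean of at least 1 TPM (a transcript level scaled for length, with the same total in every library). Rarb fell below that filter.

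Large peritoneal macrophages seed the cavity early in life and are maintained there with little input from blood monocytes. Their program depends on the transcription factor GATA6, which retinoic acid made in the omentum and peritoneum induces, and it includes receptors for dying cells, adhesion molecules and secreted matrix proteins. On activation these cells can leave the free fluid, attach to surfaces and alter this program. LPS is a ligand of the surface receptor TLR4, and CpG DNA is a ligand of the endosomal receptor TLR9.

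The libraries divide into 7 with LPS (100 ng/mL, 6 h), 7 with CpG (1 µM, 6 h) and 7 with no stimulus. They came from mice labelled Lum-/- (lumican knockout, 6 libraries), mice labelled Bgn-/- (biglycan knockout, listed as Bgn-/0 and Bgn-/-, 6 libraries) and wild type mice (WT, 9 libraries). Recombinant lumican was added to WT and Lum-/- cells (6 libraries) and recombinant biglycan to WT and Bgn-/- cells (6 libraries), at 10 µg/mL for 1 h before LPS or CpG. For the libraries with protein alone the labels give no dose or time. All cells came from unelicited cavities (mice n = 10), were selected for CD11b and were plated overnight before treatment. The labels give no age or sex and tie no well to a mouse. Each of the 21 combinations of genotype, protein and stimulus had 1 library, so no group has replicates of its own. The repeats behind each test are libraries that share a genotype or a treatment but differ in the rest, and the p-values do not measure the spread between animals.

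Some libraries stood apart, and transcripts of the targeted genes were found in libraries labelled as knockouts. Lum transcripts were at 0.823, 14.1, 2.88, 12.0, 3.93 and 1.17 TPM in the 6 libraries labelled Lum-/-, against 0 to 1.40 TPM in the 9 WT libraries. Bgn transcripts were at 0.948, 0.758, 3.49, 1.18, 3.03 and 0 TPM in the 6 libraries labelled Bgn-/-, against 0.327 to 1.52 TPM in WT libraries. The transcript levels of the targeted genes therefore did not set the labelled knockouts below WT, and every genotype result below is between libraries so labelled. Summed levels do not tell which parts of a gene were read, so they do not decide whether a label is right. A pair of libraries with different labels, untreated Lum-/- and Bgn-/- with biglycan alone, were closer to each other than sampling noise allows for (0.197 of the expected chi-square, against at least 1.79 in the other 209 pairs). These 2 alike libraries had an estimated depth of 2.41 and 2.44 M reads, against 13.1 to 21.02 M in the other 19. Since their labels differ they could not be counted as 1 sample, and the fits and permutation tests count them as 2 libraries. Results without them are given for some genes and comparisons only. Those of the permutation tests and of the related lists are given with both. The untreated WT library lacked the mast cell transcripts of the other 8 WT libraries: Cma1 was at 1.03 TPM there and at 20.5 to 34.2 TPM in the others. With the 2 alike libraries it makes up the 3 libraries that stand apart, and all 3 had no stimulus. In the cells as a whole the labelled type was present: Itgam, which encodes CD11b, ranged from 287 to 644 TPM, while 0 of 7 T and NK cell markers reached a mean of 1 TPM. Markers of B cells were present (Cd79a, 32.1 to 106 TPM).

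Promoter sequences of 5 of the 10 genes were matched in RefSeq (GRCm38.p6). Each window runs 5′ to 3′ from 250 bases before to 50 after a transcript start of the gene. The Rarb promoter (chr14:16575427-16575726, minus strand) lies at a transcript start inside the gene, which spans chr14:16430839-16819156. The Rarb levels below are summed over 5 transcripts. This promoter is shown because it holds the retinoic acid response element for which this gene is known: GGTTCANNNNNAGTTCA, searched on both strands, begins 53 bases before that transcript start. This motif was in 2 of 32851 mouse promoters (0.00609%), and capitals mark its paired half-sites.
Rarb: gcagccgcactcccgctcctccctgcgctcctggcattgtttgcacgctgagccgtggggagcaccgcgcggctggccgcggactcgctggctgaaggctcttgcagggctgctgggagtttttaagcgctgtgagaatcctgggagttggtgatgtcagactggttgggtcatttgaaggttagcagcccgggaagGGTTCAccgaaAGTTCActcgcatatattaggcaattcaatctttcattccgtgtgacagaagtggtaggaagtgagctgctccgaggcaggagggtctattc
The Cd5l (chr3:87357631-87357930, plus strand), Timd4 (chr11:46810549-46810848, plus strand) and Tgfb2 (chr1:186705940-186706239, minus strand) promoters are shown since GATA6 is the factor that defines these cells. Capitals mark the letters of 4 hexamers that GATA factors can bind, searched on both strands: AGATAA, with TGATAA, with AGATAG and with TGATAG.
Cd5l: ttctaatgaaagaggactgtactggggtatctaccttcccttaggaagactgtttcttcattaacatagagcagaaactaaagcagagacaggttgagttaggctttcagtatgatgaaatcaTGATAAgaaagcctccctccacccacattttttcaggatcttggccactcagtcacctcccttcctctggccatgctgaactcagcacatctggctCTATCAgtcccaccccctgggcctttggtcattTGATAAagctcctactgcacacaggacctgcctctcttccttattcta
Timd4: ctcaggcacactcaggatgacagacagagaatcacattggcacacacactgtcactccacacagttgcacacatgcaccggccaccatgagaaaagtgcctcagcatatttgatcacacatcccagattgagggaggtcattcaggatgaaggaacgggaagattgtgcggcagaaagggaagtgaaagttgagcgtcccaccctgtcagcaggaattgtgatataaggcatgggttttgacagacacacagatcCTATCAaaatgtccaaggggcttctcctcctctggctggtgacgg
Tgfb2: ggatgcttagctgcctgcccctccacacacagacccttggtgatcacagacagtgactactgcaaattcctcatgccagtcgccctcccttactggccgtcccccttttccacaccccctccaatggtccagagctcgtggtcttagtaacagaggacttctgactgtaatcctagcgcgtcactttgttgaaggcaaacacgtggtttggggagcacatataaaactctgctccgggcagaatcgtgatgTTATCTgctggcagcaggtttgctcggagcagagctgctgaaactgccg
The Cd5l window held 3 such hexamers and the Timd4 and Tgfb2 windows 1 each, while the Rarb and Vsig4 windows held none. Such letters were in 9778 of 32851 promoters (29.8%), so they are common, and a match is a description of the sequence and not of binding.

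LPS lowered the levels of the large peritoneal macrophage genes as deposited. Of the 9 genes tested, 8 fell (Vsig4, Icam2, Cd5l, Tgfb2, Gata6, Timd4, Fn1 and Adgre1) and Prg4 rose (limma, Benjamini-Hochberg adjusted p under 0.05 over 11763 genes). The transcripts as a whole moved in the same way: 85.6% of all genes tested were called with LPS (71.6% lower, 14% higher), so a share of 9 of 9 is near the background and is no result about these genes. The median log2 change was -1.12 over the 9 genes and -0.71 over all genes tested. TPM fixes each library's total, and scaling the libraries by their median ratio moved the median of all genes to 0.02. On that scale 5 of the 9 genes were lower with LPS (Vsig4, Icam2, Cd5l, Tgfb2 and Gata6), Prg4 and Adgre1 were higher, and Fn1 and Timd4 did not pass, with 77.5% of all genes called. Without the 3 libraries that stand apart all 9 were called in the same directions as deposited, with 86.7% of all genes called. Each LPS change named below is therefore given both as deposited and after scaling.

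With CpG the picture was mixed. Gata6, Vsig4, Icam2, Cd5l and Adgre1 fell and Prg4 rose, while Fn1, Tgfb2 and Timd4 did not pass. These 6 of 9 genes compare with 35.9% of all genes called (14.6% higher, 21.3% lower). After scaling 7 of 9 were called (Fn1 was then also higher), with 35.2% of all genes called, and likewise without the 3 libraries that stand apart, with 37.9% called. The median change was -0.25 over the 9 genes and -0.05 over all genes. In the direct comparison of LPS with CpG, 7 of the 9 genes were lower with LPS and Adgre1 and Prg4 did not pass, against 85.2% of all genes called (73.6% lower, 11.6% higher). After scaling, Tgfb2 and Vsig4 were lower with LPS than with CpG, and Adgre1 and Prg4 were higher, with 73.5% of all genes called. The LPS and CpG comparisons share the 7 libraries with no stimulus. In bulk RNA, fewer cells of a type and less RNA per cell cannot be told apart.

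**Figure D1:**
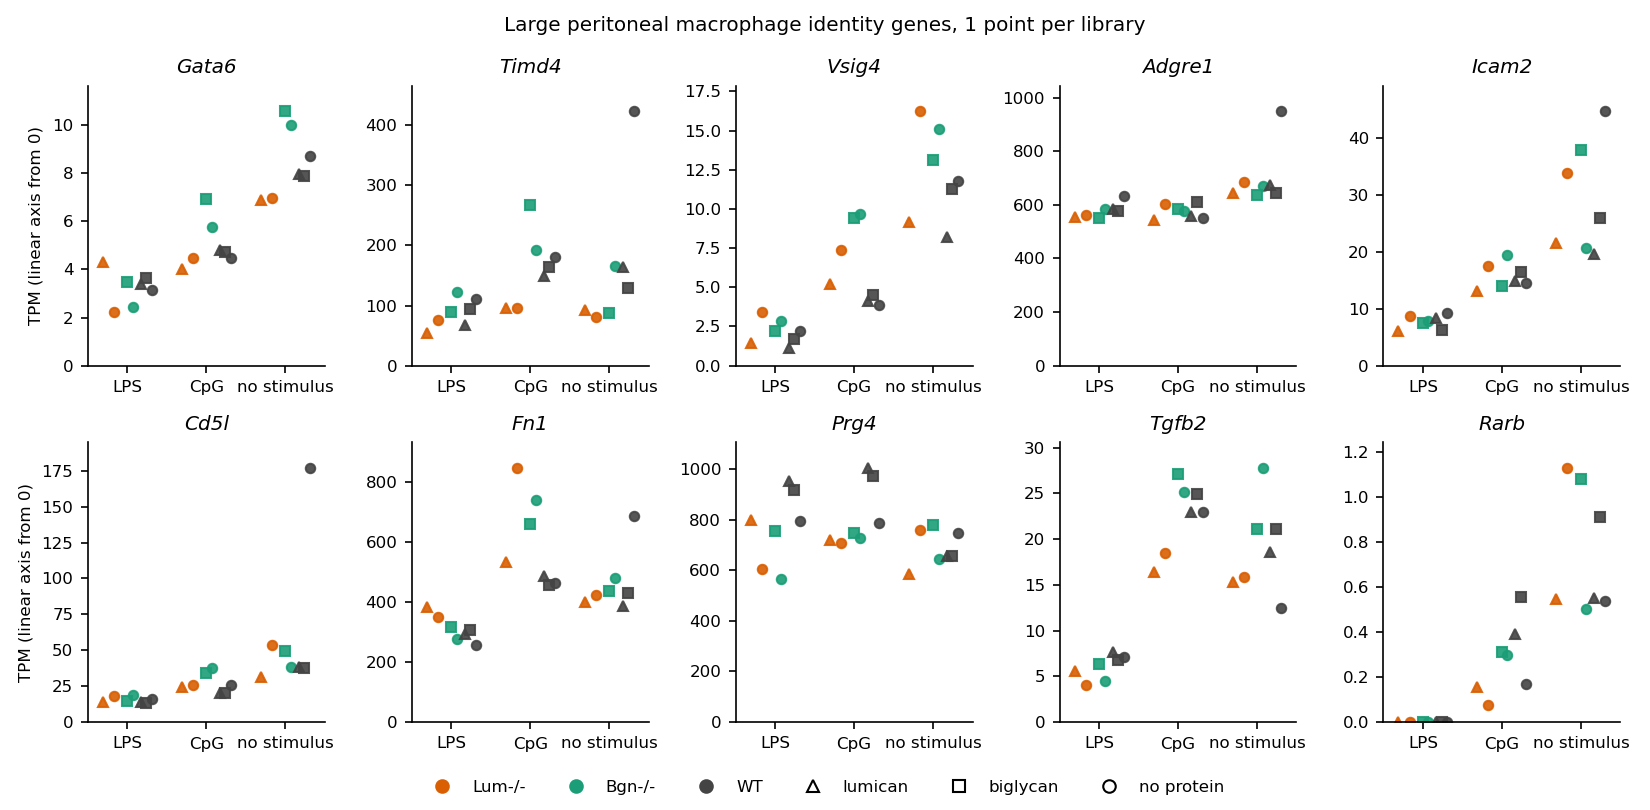
Level of each of the 10 genes in TPM (linear axis from 0) in the LPS, CpG and no-stimulus libraries, 1 point per library, with colour for the labelled genotype and shape for the added protein. Rarb is listed at 0 in all 7 LPS libraries, and the untreated WT library lies at 423 TPM for Timd4 and 177 TPM for Cd5l, above every other library.

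Gata6 encodes the zinc-finger factor on which the identity of these cells depends. It had 2.22, 3.40 and 4.30 TPM (lowest, median and highest of 7) with LPS, 4.04, 4.73 and 6.91 TPM with CpG, and 6.87, 7.99 and 10.6 TPM with no stimulus. All 7 LPS libraries lay below all 7 libraries with no stimulus, the CpG libraries lay between them, and the ranges of the CpG libraries overlapped those of the other groups at their ends. Gata6 fell by 1.12 ± 0.10 (SE) on the log2(TPM + 1) scale with LPS (limma adjusted p = 8.64e-08), and by 0.44 ± 0.10 after scaling (limma adjusted p = 0.0017). With CpG it fell by 0.64 ± 0.10 (limma adjusted p = 0.000269), and it was lower in 7 of 7 matched pairs with each stimulus. LPS lay below CpG by -0.48 ± 0.10 as deposited (limma adjusted p = 0.000381), but at 0.14 ± 0.10 after scaling (limma adjusted p = 0.229), so the order of the stimuli for this gene depends on the scaling. The fall of Gata6 with LPS was as large without the 3 libraries that stand apart (-1.11 ± 0.12).

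Rarb encodes the retinoic acid receptor beta, which is itself a target of retinoic acid through the element printed above. It was listed at 0 in all 7 LPS libraries. It had 0.076 to 0.556 TPM (median 0.296) with CpG and 0.502 to 1.13 TPM (median 0.553) with no stimulus. These levels are worth few reads, 0.83 to 10.9 estimated reads with CpG and 1.67 to 13.7 with no stimulus. In the LPS libraries 3 reads would be worth 0.153 to 0.215 TPM, so each level of 0 allows up to that much. With no stimulus the same 3 reads would be worth 0.186 to 0.224 TPM in 5 libraries and up to 1.29 TPM in the shallow ones, which held the highest Rarb levels among the libraries with no stimulus (1.13 and 1.08 TPM). Rarb was lower with LPS than with no stimulus and with CpG than with no stimulus in 7 of 7 matched pairs each (exact two-sided sign-flip permutation p = 0.0156, the smallest that 7 pairs can give, 0.0365 adjusted over the 7 contrasts of this gene). In each comparison the pairs with the 2 alike libraries rest on no-stimulus levels of 1.67 and 2.94 estimated reads, fewer than 3. Their direction is uncertain, and the permutation p counts them like the other pairs. LPS is not tested against CpG here, since the lower CpG levels lie within what a level of 0 allows in the LPS libraries. No fold is given for a group listed at 0.

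Among the surface receptors, Vsig4 encodes CRIg, a receptor for complement C3 fragments that inhibits T cells. It had 1.11, 2.21 and 3.42 TPM with LPS, 3.86, 5.23 and 9.66 TPM with CpG, and 8.18, 11.8 and 16.2 TPM with no stimulus. The LPS libraries lay below all others, and the CpG range overlapped the range with no stimulus. The fall with LPS, -2.09 ± 0.12 as deposited (limma adjusted p = 9.64e-10) and -1.45 ± 0.11 after scaling (limma adjusted p = 2.74e-08), was the largest of the 9 genes on both scales. Vsig4 fell by 0.86 ± 0.12 with CpG (limma adjusted p = 0.000118). LPS stood below CpG by -1.23 ± 0.12, and by -0.65 ± 0.11 after scaling, and both passed (limma adjusted p = 2.76e-07 and 9.71e-05).

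Icam2 encodes an adhesion molecule that binds the integrin LFA-1 and serves as a gate for these cells in flow cytometry. It had 6.17, 7.76 and 9.27 TPM with LPS, 13.1, 14.9 and 19.5 TPM with CpG, and 19.6, 26.0 and 44.6 TPM with no stimulus. The 3 groups did not overlap. Icam2 fell by 1.73 ± 0.15 with LPS and by 0.97 ± 0.14 after scaling (limma adjusted p = 1.03e-07 and 3.25e-05), and by 0.79 ± 0.15 with CpG (limma adjusted p = 0.00148). The 3 libraries that stand apart held the 3 highest levels with no stimulus (33.7, 37.9 and 44.6 TPM). Without them the changes were -1.44 ± 0.11 with LPS and -0.50 ± 0.11 with CpG, and both passed. LPS was below CpG by -0.94 ± 0.15 as deposited (limma adjusted p = 5.51e-05), and the scaled difference of -0.23 ± 0.14 did not pass (limma adjusted p = 0.167). It passed when scaled without the 3 libraries that stand apart (-0.25 ± 0.08, limma adjusted p = 0.0141, with 79% of all genes called).

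Timd4 encodes TIM4, a receptor for phosphatidylserine on dying cells. It had 53.6, 88.9 and 122 TPM with LPS, 95.4, 164 and 268 TPM with CpG, and 80.6, 129 and 423 TPM with no stimulus, and the groups overlapped. Of the libraries with no stimulus, the untreated WT library stood far above the other 6, which reached at most 165 TPM. Timd4 fell by 0.69 ± 0.21 with LPS as deposited (limma adjusted p = 0.00873). After scaling the value was 0.14 ± 0.23, which did not pass (limma adjusted p = 0.594). With CpG its change of 0.22 ± 0.21 did not pass (limma adjusted p = 0.447), and it rose by 0.40 without the untreated WT library alone (limma adjusted p = 0.0275). LPS lay below CpG in 7 of 7 matched pairs, by -0.91 ± 0.21 (limma adjusted p = 0.00134), and by -0.14 ± 0.23 after scaling, which did not pass (limma adjusted p = 0.6).

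Adgre1 encodes F4/80, an adhesion GPCR and the classic marker of mouse macrophages. Its level was high: 551, 578 and 632 TPM with LPS, 542, 578 and 609 TPM with CpG, and 637, 669 and 949 TPM with no stimulus. The untreated WT library held the 949 TPM, and the others with no stimulus reached at most 684 TPM. Every stimulated library lay below every library with no stimulus. Adgre1 fell by 0.25 ± 0.06 with each stimulus (limma adjusted p = 0.00231 with LPS and 0.00811 with CpG). Without the 3 libraries that stand apart the change was -0.19 ± 0.04 with each stimulus, and both passed. After scaling all libraries Adgre1 was 0.58 ± 0.07 higher with LPS (limma adjusted p = 3.4e-06) and 0.20 ± 0.07 lower with CpG (limma adjusted p = 0.0379). Its direction with LPS therefore depends on the scaling. LPS and CpG differed by 0.00 ± 0.06 as deposited (limma adjusted p = 0.979) and by 0.78 ± 0.07 after scaling (limma adjusted p = 2.21e-07).

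**Figure D2:**
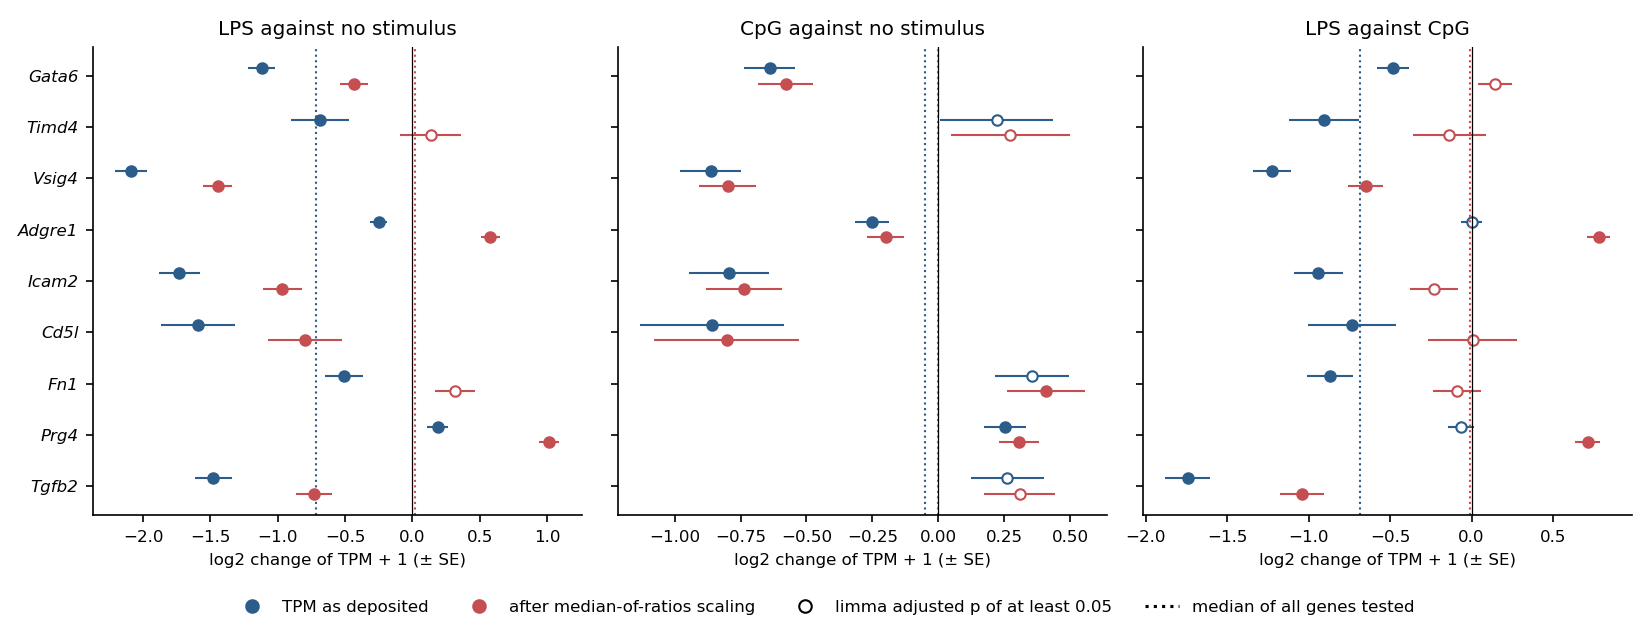
Log2 change of TPM + 1 (± SE) of the 9 genes tested for LPS against no stimulus, CpG against no stimulus and LPS against CpG, as deposited and after median-of-ratios scaling, with open points where the limma adjusted p was at least 0.05. Dotted lines mark the median of all genes tested, -0.71 for LPS against no stimulus as deposited. Vsig4 lies farthest to the left with LPS on both scales, and Adgre1 lies on opposite sides of 0.

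The secreted products differed among themselves. Cd5l encodes AIM, a scavenger-receptor family protein that macrophages release into plasma. It had 13.3, 14.8 and 18.9 TPM with LPS, 20.02, 25.6 and 37.9 TPM with CpG, and 31.3, 38.4 and 177 TPM with no stimulus. All LPS libraries lay below all CpG libraries and all libraries with no stimulus. Cd5l fell by 1.59 ± 0.27 with LPS and by 0.80 ± 0.28 after scaling (limma adjusted p = 8.34e-05 and 0.0174), and by 0.86 ± 0.27 with CpG (limma adjusted p = 0.0257). Without the 3 libraries that stand apart, the fall was -1.21 ± 0.10 with LPS and -0.48 ± 0.10 with CpG, and both passed. Without the 2 alike libraries alone the change with CpG was -0.84 ± 0.31 and did not pass (limma adjusted p = 0.0508, with 39% of all genes called). The call with CpG ended when any of 5 single libraries was left out: the biglycan-alone library labelled Bgn-/-, the lumican-alone library labelled Lum-/-, and WT with biglycan and CpG, with lumican and CpG or with lumican alone (limma adjusted p = 0.0524 to 0.0949). LPS stood below CpG by -0.73 ± 0.27 as deposited (limma adjusted p = 0.0219), and at 0.0060 ± 0.28 after scaling. That call was lost without the CpG library of biglycan-treated Bgn-/- or of lumican-treated Lum-/- cells, or without the LPS library of biglycan-treated or lumican-treated WT cells (limma adjusted p = 0.0514 to 0.0825).

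Tgfb2 encodes the ligand TGF-beta 2. It had 4.01, 6.31 and 7.66 TPM with LPS, 16.5, 23.0 and 27.2 TPM with CpG, and 12.4, 18.6 and 27.8 TPM with no stimulus. The LPS libraries lay below all 14 others, while the CpG range lay inside that with no stimulus. Tgfb2 fell by 1.48 ± 0.14 with LPS and by 0.73 ± 0.14 after scaling (limma adjusted p = 1.89e-07 and 0.00022). With CpG the change was 0.26 ± 0.14 and did not pass (limma adjusted p = 0.157). It passed only when the untreated library labelled Bgn-/- was left out among the single libraries tried (0.36, limma adjusted p = 0.0242). The difference of LPS from CpG, -1.74 ± 0.14 as deposited and -1.04 ± 0.14 after scaling (limma adjusted p = 4.17e-08 and 1.02e-05), was the largest of the 9 genes on both scales.

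Fn1 encodes fibronectin, an extracellular matrix protein bound by integrins. It had 254, 305 and 382 TPM with LPS, 455, 534 and 846 TPM with CpG, and 385, 429 and 685 TPM with no stimulus. The LPS libraries lay below all others, and the CpG libraries overlapped those with no stimulus. Fn1 fell by 0.51 ± 0.14 with LPS as deposited (limma adjusted p = 0.00397). After scaling it was at 0.32 ± 0.15, which did not pass (limma adjusted p = 0.0629). Scaled and without the 3 libraries that stand apart, it was higher with LPS (0.29 ± 0.11, limma adjusted p = 0.0351, with 78.2% of all genes called), so its direction with LPS depends on the scaling. With CpG it was at 0.36 ± 0.14 and did not pass (limma adjusted p = 0.0653). It passed for CpG after scaling (0.41, limma adjusted p = 0.0453) and without the untreated WT library or the WT CpG library without protein (0.46 and 0.43). LPS was below CpG by -0.87 ± 0.14 as deposited (limma adjusted p = 5.61e-05) and by -0.09 ± 0.15 after scaling, which did not pass (limma adjusted p = 0.595).

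Prg4 encodes lubricin, a mucin-like glycoprotein that lubricates joint surfaces. It was the only one of the 9 genes called higher with a stimulus as deposited. It had 564, 797 and 953 TPM with LPS, 709, 747 and 1006 TPM with CpG, and 587, 656 and 781 TPM with no stimulus, and all 3 groups overlapped. Prg4 rose by 0.19 ± 0.08 with LPS (limma adjusted p = 0.0433) and by 1.02 ± 0.08 after scaling (limma adjusted p = 2.69e-08). It was higher in 4 of 7 matched pairs with LPS and in 5 of 7 with CpG, where it rose by 0.25 ± 0.08 (limma adjusted p = 0.0267). The exact sign-flip permutation p over these pairs was 0.3125 with LPS and 0.0938 with CpG. In the 3 genotypes without added protein, Prg4 was lower with LPS in the libraries labelled Lum-/- (607 TPM, against 761 TPM with no stimulus) and Bgn-/- (564 against 645 TPM), and higher in WT (797 against 748 TPM). Without added protein the change was -0.14 with LPS and 0.05 with CpG, and neither passed (limma adjusted p = 0.289 and 0.818). The LPS call was lost when any of 14 of the 21 libraries was left out (limma adjusted p = 0.0515 to 0.201): all 9 WT libraries except the CpG libraries with lumican or biglycan, 4 of those labelled Lum-/- (LPS and CpG without protein, lumican alone, lumican with LPS), and 3 of those labelled Bgn-/- (untreated, CpG without protein, biglycan with LPS). The CpG call was lost without WT biglycan with CpG, WT lumican with CpG, WT biglycan alone, WT lumican alone or Lum-/- lumican alone (limma adjusted p = 0.0524 to 0.0991). Without the 3 libraries that stand apart Prg4 rose by 0.29 ± 0.06 with LPS and by 0.36 ± 0.06 with CpG, and both passed.

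The Fn1 gene (chr1:71585520-71653200, minus strand) makes transcripts with or without the alternative EIIIA exon, which adds a fibronectin type III repeat found in cellular but not in plasma fibronectin. The exon lies at chr1:71603660-71603929 (GRCm38, GENCODE vM21) and is 270 bases long.
Fn1 EIIIA exon: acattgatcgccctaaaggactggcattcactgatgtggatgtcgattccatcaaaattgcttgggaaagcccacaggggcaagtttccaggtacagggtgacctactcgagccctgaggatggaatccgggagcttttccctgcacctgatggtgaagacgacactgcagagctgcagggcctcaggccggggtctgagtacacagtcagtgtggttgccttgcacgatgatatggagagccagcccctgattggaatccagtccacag
Of the 7 long Fn1 transcripts that span this place, 4 include the exon. Their share of the spanning TPM was 43.8%, 45.6% and 48.7% with LPS (lowest, median and highest), 32.1%, 35.5% and 37.3% with CpG, and 30.6%, 36.4% and 42.0% with no stimulus. Every LPS library lay above every other library. The share was 9.43 ± 4.15 percentage points higher with LPS than with no stimulus (SD, n = 7 pairs, higher in 7 of 7) and 10.4 ± 1.92 points higher than with CpG (SD, n = 7 pairs, higher in 7 of 7). Both gave an exact two-sided sign-flip permutation p = 0.0156, the smallest that 7 pairs can give, and 0.0234 adjusted over 3 comparisons. CpG and no stimulus differed by -0.978 ± 5.48 points (SD, n = 7 pairs, exact permutation p = 0.641). The 2 alike libraries held the highest shares with no stimulus (42.0% and 40.3%), and the permutation p counts their pairs like the other pairs. The difference of LPS from CpG uses neither of them. A share within 1 gene does not depend on the scaling of the library, but it is kallisto's estimate from reads that most of these transcripts share. This exon was chosen for description after its values were seen, so its p-values are descriptive only. The EIIIB exon was in at most 0.446% of the spanning TPM in any library.

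**Figure D3:**
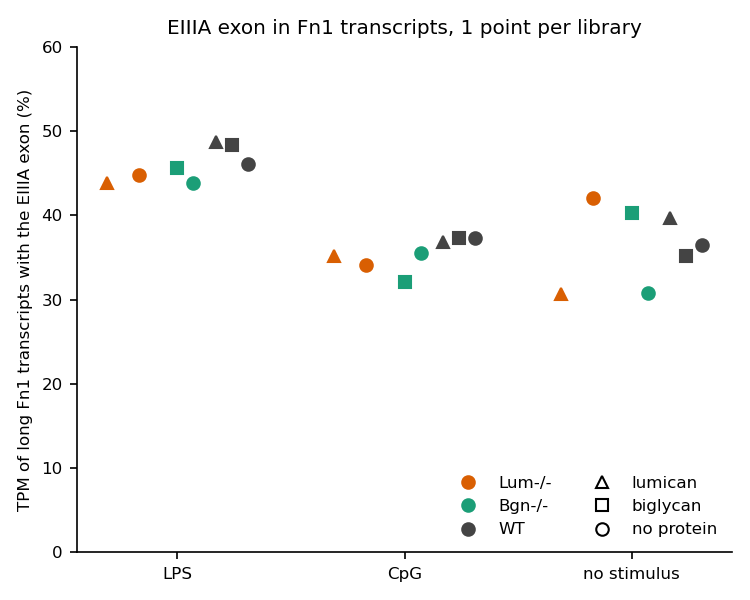
Share of the TPM of long Fn1 transcripts that include the EIIIA exon, in percent, in LPS, CpG and no-stimulus libraries, 1 point per library. The LPS libraries lie between 43.8% and 48.7%, all above the 14 other libraries.

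Other genes of the same cells and pathways were read from 4 related lists. Among 17 other peritoneal macrophage genes, 11 fell and 5 rose with LPS (median -1.19, against -0.71 over all genes, of which 85.6% were called), and 8 were lower and 7 higher after scaling, with 77.5% of all genes called. These shares and those of the other lists are to be read against that background. Klf2, a zinc-finger transcription factor, fell with LPS to a median of 3.21 TPM, against 23.4 TPM with no stimulus (-2.64 ± 0.13, and -1.93 after scaling). Bhlhe41, a basic helix-loop-helix repressor, fell with LPS to 22.4 TPM, against 83.4 TPM with no stimulus (-1.92 ± 0.09, and -1.12 after scaling). Alox15, the 12/15-lipoxygenase of these cells, fell by 2.46 ± 0.42 with LPS (1.64 after scaling), whereas Serpinb2, an inhibitor of plasminogen activators, rose by 2.38 ± 0.19 (3.21 after scaling). All 4 passed (limma adjusted p at most 7.63e-05) and kept their direction and their call after scaling. With CpG, 6 of the 17 fell and 3 rose, against 35.9% of all genes called (21.3% lower, 14.6% higher).

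The retinoid pathway list held 19 genes, of which 9 had a mean of at least 1 TPM. With LPS 6 of the 9 fell and 2 rose (median -0.98), and after scaling 5 were lower and 4 higher, against 85.6% of all genes called as deposited and 77.5% after scaling. Dhrs3, a retinaldehyde reductase that is induced by retinoic acid, fell with LPS to a median of 4.31 TPM, against 55.5 TPM with no stimulus (-3.67 ± 0.11, and -2.93 after scaling). It fell by 1.62 ± 0.11 with CpG, to 18.7 TPM. The receptor genes Rarg and Rxra fell by 1.97 ± 0.15 and 1.75 ± 0.05 with LPS, and by 1.21 and 0.95 after scaling. Aldh1a2, which encodes an enzyme that makes retinoic acid, rose with LPS to 15.6 TPM, against 4.53 TPM with no stimulus (1.49 ± 0.14, limma adjusted p = 1.46e-07, and 2.24 after scaling). With CpG, with 35.9% of all genes called, 2 of the 9 fell (Dhrs3 and Rxra) and Tgm2, a transglutaminase gene that retinoic acid induces, rose by 0.77 ± 0.10 (limma adjusted p = 6.87e-05).

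Of 15 TGF-beta pathway genes 14 were tested, and with LPS 6 fell and 5 rose (median -0.19), against 5 lower and 8 higher after scaling, with 85.6% of all genes called as deposited and 77.5% after scaling. The receptor gene Tgfbr2 fell by 2.26 ± 0.07 and the signal transducer Smad3 by 2.01 ± 0.15 (1.49 and 1.52 after scaling). Itgb8, a chain of the integrin that activates latent TGF-beta, rose by 3.50 ± 0.11 with LPS (4.23 after scaling), to 43.3 TPM against 2.72 TPM with no stimulus. Itgb8 also rose with CpG, by 1.15 ± 0.11, to 8.54 TPM. Tgfbi, a matrix protein gene induced by TGF-beta, fell by 2.44 ± 0.26 with LPS (1.63 after scaling) and rose by 0.97 ± 0.26 with CpG. With CpG 5 of the 14 rose and 1 fell, against 35.9% of all genes called. These named changes passed with limma (adjusted p at most 0.0116).

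The fourth list held 21 partners of the surface and matrix products, such as integrins and bridging molecules, and 16 were tested. With LPS 8 fell and 5 rose (median -0.41), and after scaling 6 were lower and 8 higher, against 85.6% of all genes called as deposited and 77.5% after scaling. Gas6, a ligand that bridges phosphatidylserine to TAM receptors, fell by 2.22 ± 0.12 (1.75 after scaling), while Axl, a TAM receptor gene, rose by 1.53 ± 0.12 (2.34 after scaling). With CpG 6 rose and 5 fell, against 35.9% of all genes called. The integrin chain genes Itgal and Itga5, whose products bind ICAM-2 and fibronectin, rose by 0.96 ± 0.09 and 0.65 ± 0.09, and Cd44, a receptor for hyaluronan, by 0.84 ± 0.05 (limma adjusted p at most 9.3e-05).

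Cell type markers moved with the stimuli, and their part in these results was not tested. The summed level of 10 pan-macrophage markers was 13535 to 17479 TPM with LPS, 33313 to 38138 TPM with CpG and 30219 to 43807 TPM with no stimulus. Lyz2 made up most of that sum, with a median of 12513 TPM with LPS and 35332 TPM with no stimulus. Cd14, of the same list, rose with LPS to a median of 2315 TPM, against 683 TPM with no stimulus (1.76 ± 0.09, limma adjusted p = 2.31e-10). The 12 small peritoneal macrophage and dendritic cell markers summed to 1161 to 1616 TPM with LPS, 1602 to 1867 TPM with CpG and 1244 to 2323 TPM with no stimulus. In the 2 alike libraries they summed to 2244 and 2323 TPM, against 1161 to 1867 TPM in the 18 that do not stand apart. Over all libraries Cd74 of that list had a median of 809 TPM, and Ccr2 of 0.585 TPM. The 6 B cell markers reported summed to 361 to 537 TPM with LPS, 463 to 711 TPM with CpG and 354 to 826 TPM with no stimulus. The 8 neutrophil markers summed to 318 to 398 TPM with LPS, 150 to 204 TPM with CpG and 108 to 162 TPM with no stimulus. S100a8 made up most of that sum, and the defining genes S100a9, Ly6g, Ngp and Elane had a median of 0.

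Between genotypes, 1 of the 9 genes was called in libraries labelled Lum-/- against WT: Timd4 was lower. With LPS, Timd4 had 75.8 and 53.6 TPM in the libraries labelled Lum-/-, against 112, 67.1 and 93.9 TPM in WT. With CpG it had 95.4 and 95.7 TPM in libraries labelled Lum-/-, against 180, 148 and 164 TPM in WT. With no stimulus it had 80.6 and 93.3 TPM in libraries labelled Lum-/-, against 423, 164 and 129 TPM in WT. Timd4 was lower in 6 of 6 matched treatments (-0.90 ± 0.22, limma adjusted p = 0.0336), and the groups overlapped only with LPS. This 1 gene of 9 compares with 5.34% of all genes called. After scaling the difference was -0.86 ± 0.23 (limma adjusted p = 0.0522), with 4.51% of all genes called, and without the 3 libraries that stand apart it was -0.63 ± 0.10 (limma adjusted p = 0.00389). Without the 2 alike libraries alone the Timd4 call was lost (-0.70 ± 0.21, limma adjusted p = 0.053), while Prg4 was lower (-0.28 ± 0.06, limma adjusted p = 0.0109), with 10.6% of all genes called.

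The Timd4 call was lost when any of 13 single libraries was left out (limma adjusted p = 0.0507 to 0.089). These were all 6 labelled Lum-/-, the LPS and CpG libraries without protein from Bgn-/- and from WT cells, and the 3 lumican-treated WT libraries. The exact sign-flip permutation test gave p = 0.0312, the smallest that 6 pairs can give, and 0.0729 adjusted over the 7 contrasts of Timd4. Without the 3 libraries that stand apart, 3 more genes were called in libraries labelled Lum-/- against WT: Fn1 was higher (0.38 ± 0.11), and Prg4 (-0.29 ± 0.06) and Tgfb2 (-0.40 ± 0.09) were lower. There 12.4% of all genes were called.

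Vsig4 was higher in 6 of 6 matched treatments in libraries labelled Lum-/- and in 6 of 6 in those labelled Bgn-/-. Each was set against the WT libraries with the same treatment, and the WT libraries without protein served in both comparisons. With CpG it had 7.39 and 5.23 TPM in libraries labelled Lum-/- and 9.66 and 9.39 TPM in libraries labelled Bgn-/-, against 3.86, 4.11 and 4.48 TPM in WT. With LPS it had 3.42 and 1.42 TPM in Lum-/-, 2.86 and 2.22 TPM in Bgn-/-, and 2.21, 1.11 and 1.67 TPM in WT. With no stimulus it had 16.2 and 9.19 TPM in Lum-/-, 15.1 and 13.1 TPM in Bgn-/-, and 11.8, 8.18 and 11.3 TPM in WT. Of these, 16.2, 13.1 and 11.8 TPM are from the libraries that stand apart. The differences of 0.38 ± 0.12 for Lum-/- and 0.48 ± 0.12 for Bgn-/- did not pass with limma (adjusted p = 0.0858 and 0.209). Without the libraries that stand apart they were 0.38 ± 0.13 and 0.59 ± 0.15, and neither passed (limma adjusted p = 0.0906 and 0.0895). Each exact sign-flip permutation p was 0.0312, the smallest possible, and 0.0437 adjusted over the 7 contrasts of Vsig4. That adjustment includes the stimulus contrasts of Vsig4 and covers no other gene. The permutation p counts the pairs with the libraries that stand apart like the other pairs.

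In libraries labelled Bgn-/- against WT, none of the 9 genes was called, with 0.213% of all genes called (25 of 11763, and 881 at an unadjusted p under 0.05). Without the 2 alike libraries Prg4 was lower (-0.30 ± 0.06, limma adjusted p = 0.0307, with 1.03% of all genes called), and without all 3 that stand apart it was -0.32 ± 0.06 (limma adjusted p = 0.0279, with 1.61% called). With LPS, Prg4 had 564 and 753 TPM in libraries labelled Bgn-/-, against 797, 953 and 917 TPM in WT. The mast cell markers differed with the genotype labels. Their sum was 7.57 to 10.6 TPM in the libraries labelled Lum-/- and 2.55 to 8.45 TPM in those labelled Bgn-/-, against 64.6 to 115 TPM in 8 WT libraries and 3.45 TPM in the untreated one. Their part in the genotype results was not tested, and the genotype and the cell preparation cannot be told apart.

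**Figure D4:**
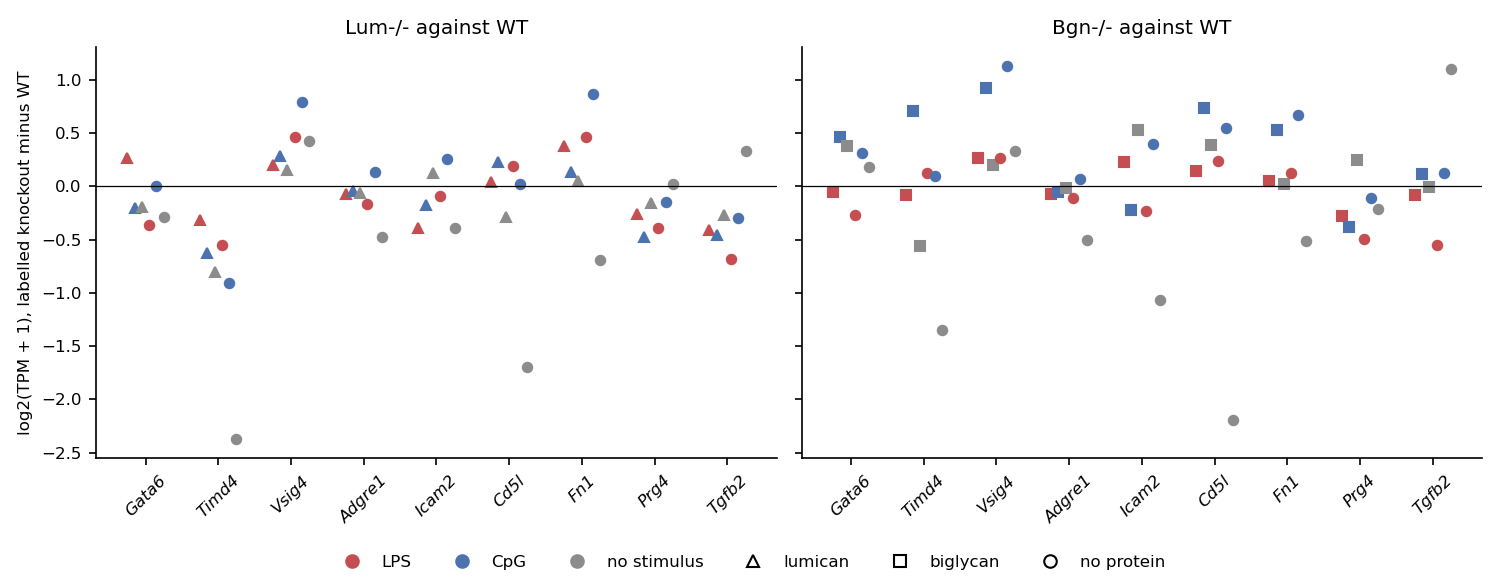
Difference in log2(TPM + 1) of each gene between a library labelled Lum-/- or Bgn-/- and the WT library with the same treatment, 1 point per matched treatment, with colour for the stimulus and shape for the added protein. Timd4 lies below 0 in 6 of 6 treatments for Lum-/-, and Vsig4 above 0 in 6 of 6 for each labelled knockout.

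In the related lists, libraries labelled Lum-/- had 3 of 17 other peritoneal macrophage genes higher and 4 lower than WT, against 5.34% of all genes called. Cxcl13, a B cell chemokine made by peritoneal macrophages, had a median of 367 TPM in libraries labelled Lum-/- and 145 TPM in WT (1.46 ± 0.31, limma adjusted p = 0.0212, higher in 5 of 6 matched treatments). Serpinb2 was higher by 0.98 ± 0.20 and Stab1, a scavenger receptor gene of the partner list, by 0.85 ± 0.13, while Klf2 and Bhlhe41 were lower (-0.57 ± 0.13 and -0.57 ± 0.09), and all 4 passed with limma. Of the partner genes, 1 was higher and 4 were lower (1 and 2 after scaling, with 4.51% of all genes called), and no retinoid or TGF-beta pathway gene was called. In libraries labelled Bgn-/- no gene of the 4 lists was called.

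Adding lumican or biglycan gave no call among the 9 genes, and 0% of all genes were called (0 of 11763 with limma for each protein, with 1218 for lumican and 1054 for biglycan at an unadjusted p under 0.05). Cd5l was lower with lumican in 6 of 6 matched libraries. With no stimulus it had 31.3 TPM with lumican in Lum-/- and 38.4 TPM in WT cells, against 53.9 and 177 TPM without protein, both of them libraries that stand apart. Its difference was -0.55 ± 0.28 (limma adjusted p = 0.508), and the exact sign-flip permutation p was 0.0312, or 0.0547 adjusted over the 7 contrasts of Cd5l. Without the 3 libraries that stand apart the difference was -0.08 ± 0.11 (limma adjusted p = 0.837), and 0.24 ± 0.22 with no stimulus (limma adjusted p = 1.00), so the size of the difference rests on those libraries. Vsig4 was lower with lumican in 5 of 6 (-0.51 ± 0.12, limma adjusted p = 0.241). With LPS, Prg4 had 798 TPM in Lum-/- and 953 TPM in WT cells with lumican, against 607 and 797 TPM without. With LPS and biglycan it had 753 TPM in Bgn-/- and 917 TPM in WT cells, against 564 and 797 TPM without. Prg4 was thus higher with protein and LPS in all 4 such pairs, of which the WT ones share the library with LPS alone, and the differences did not pass (0.39 ± 0.14 for lumican, limma adjusted p = 0.246, with 0.034% of all genes called, and 0.32 ± 0.14 for biglycan, limma adjusted p = 0.394). Without the 3 libraries that stand apart, the lumican difference with LPS was 0.37 ± 0.09 (limma adjusted p = 0.0493, with 3.11% of all genes called), and after scaling it was 0.23 ± 0.07 there and did not pass (limma adjusted p = 0.122).

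No difference between genotypes in the response to LPS or CpG was called for the 9 genes, and 0 of 11763 genes were called in any of the 4 comparisons (559 to 1445 at an unadjusted p under 0.05). Without the 2 alike libraries, 6 differences between Bgn-/- and WT were called. For the response to LPS these were Cd5l (2.36), Timd4 (1.41) and Tgfb2 (-1.40), with 2.1% of all genes called. For the response to CpG they were Cd5l (2.86), Timd4 (1.77) and Adgre1 (0.49), with 2.3% called. In that fit the only untreated WT library was the one that stands apart, and without it the comparison could not be fitted.

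For 2 members the genes with the most similar pattern over the 21 libraries were found by the mean absolute difference of centred log2(TPM + 1). The 5 nearest to Gata6 were Nlrp10, Heatr5a, Thap6, Atp6v1b2 and Inpp4a, at 0.154 to 0.158, against a median of 0.382 over all genes. Heatr5a, for example, had a median of 8.62 TPM with LPS, 13.3 TPM with CpG and 18.7 TPM with no stimulus. The 5 nearest to Timd4 were Ifi27, Tmem202, Ndufa12, Serpinb12 and Akr1c12, at 0.270 to 0.298, against a median of 0.537.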

How the data were processed

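Transcript levels were deposited as 1 table of TPM per transcript, which the authors made with kallisto 0.44.0 after bcl2fastq 1.8.4, with the build GRCm38, per the submitters' processing notes. Libraries were stranded TruSeq libraries read on a HiSeq instrument, per the labels' protocols. Each of the 21 libraries sums to 1000000 TPM. Of 89562 transcripts, 6774 had no gene name, 5423 of these took one from GENCODE vM21 through their transcript ID, and 1351 were left out (5350.9 to 7550.7 TPM per library). TPM was summed per gene.

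No counts were used. Depth was estimated from the spacing of low values over 3704 genes with an assumed fragment length of 200 bases, and 64.3% to 74.2% of them fell within 0.2 of whole reads (an even spread gives 40%). These reads are estimates and entered no test across genes. Floors of 3 reads cover counting error only.

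Tests used genes whose mean was at least 1 TPM, on log2(TPM + 1), a scale that understates the change of low genes, with limma 3.58.1 in R 4.3.3 (lmFit, eBayes with a trend, two-sided, Benjamini-Hochberg adjusted p under 0.05 over all genes tested). The fit held genotype and 9 treatments over all 21 libraries, with 10 residual degrees of freedom. Contrasts weighted proteins or stimuli equally, and a genotype-by-stimulus term gave the response comparisons. Matched pairs of libraries (same genotype and protein, or same treatment) gave exact sign-flip permutation tests. The limma fit for LPS against no stimulus was tried on simulated data with normal errors and a change set in few genes. In these data most genes moved with LPS, so the simulation does not cover that setting, nor the permutation tests. Python 3.11.15 with pandas 2.3.3, numpy 2.4.6, statsmodels 0.14.6 and matplotlib 3.10.9 did the rest.

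The members and lists were chosen with earlier results of these data known, and 1 marker of the B cell list is not reported here. All 10 members are named in each comparison. Up to 4 called genes with the largest change and at least 5 TPM in the higher group were eligible per related list, and the 5 nearest profiles are named for Gata6 and Timd4. Alternatives were other pseudocounts and filters, median-of-ratios scaling, the most abundant transcript, other models, and leaving out libraries. Scaling without the 3 libraries that stand apart was chosen after seeing the data.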

Additional observations from a re-analysis of the deposited data

Results flagged for a closer look

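In 29 sets of 7 libraries (a gene within a stimulus), 5 held a library farther from the others than 7 values usually spread (Dixon's ratio above 0.568), and chance flags about 1 in 20. The untreated WT library was the highest with no stimulus for 4 genes: Timd4 at 423 TPM, Adgre1 at 949 TPM, Cd5l at 177 TPM and Fn1 at 685 TPM. The other 6 libraries with no stimulus reached at most 165 TPM for Timd4, 684 TPM for Adgre1, 53.9 TPM for Cd5l and 480 TPM for Fn1. The WT library with LPS and no protein was the highest LPS library for Adgre1, at 632 TPM.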

How the results depend on the processing

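Across all settings and members, 2950 of 3060 values kept their side of the threshold and, where called, their direction. Another 65 lost a call, 32 gained one, and 13 reversed with a call in either fit. Directions were not compared for values called in neither fit. Some of those changed sign, such as Cd5l in Bgn-/- against WT (-0.12 to 0.33 with 1 library left out). Scaling by median ratios gave the reversals for LPS against no stimulus in Adgre1 (0.58), Fn1 (0.32) and Timd4 (0.14), and without the 3 libraries that stand apart these were 0.60, 0.29 and 0.12. It also reversed LPS against CpG in Cd5l (0.0060), Gata6 (0.14) and Prg4 (0.71), and without those 3 libraries in Gata6 (0.13) and Prg4 (0.69). With the most abundant transcript of each gene, Fn1 stood at 0.10 for LPS, and in the libraries without protein Prg4 stood at -0.14. Counts of called members moved as follows. LPS against CpG gave 4 after scaling and 7 as deposited. Lum-/- against WT gave 1 as deposited, 0 with no filter and 0 after scaling, 4 without the 3 libraries apart on either scale, and 2 by the exact permutation test (p unadjusted here). Bgn-/- against WT gave 0 as deposited, 1 without the 2 alike libraries, 1 without the 3 on either scale and 1 by the exact permutation test. Lumican gave 0 with limma and 1 by the exact permutation test. The genotype-by-stimulus differences gave 0 with all libraries and 6 without the 2 alike libraries, and could not be fitted without all 3. Leaving out 1 library at a time gave 8 to 9 called members for LPS, 4 to 8 for CpG, 7 or fewer (at least 6) for LPS against CpG, 0 to 2 for Lum-/-, 0 for Bgn-/- and for each protein, and 0 to 2 for the genotype-by-stimulus differences. Beyond the scaling itself and the libraries left out, the cause of these moves was not tested. The labels give no replicate numbers, so no fit used one as a block, and the matched pairs are libraries with the same genotype and protein, or the same treatment. The 7 sets of genotype and protein as a block ended no call but that of Prg4 with each stimulus. Rarb and Vsig4 with LPS rest on few reads.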
